A study of Mus musculus with 24 samples.

Results

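The ventromedial hypothalamus (VMH) of mice on standard diet was compared between genotypes. The samples were chosen by title: 3 arrays labelled Gfap-Bmal1 cKO and 3 labelled control, 6 of the 24 arrays in the series, read across 16211 genes tested. By their label, cKO mice lack the clock gene Bmal1 (Arntl) in cells that use the Gfap gene, and both groups had eaten standard diet for 16 weeks. The series also measured both genotypes in VMH after 16 weeks of high fat diet, and in brown adipose tissue (BAT) on either diet, with 3 arrays in each of its 8 groups. Strain, age and sex are not given in the labels, nor is the deleted part of the gene. Whether each array stands for its own animal is not stated either, so a p-value here speaks only of the spread among arrays, part of which may be technical.

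The VMH is a nucleus of mostly glutamatergic neurons in the medial hypothalamus that regulates energy expenditure, feeding and glucose balance. Around its neurons lie astrocytes, which take up transmitter, supply lactate and lipid, and secrete much of the matrix between cells. BMAL1 is a core transcription factor of the circadian clock. It pairs with CLOCK or NPAS2, binds E-box sequences in DNA and drives its own repressors, the period and cryptochrome genes. Gfap encodes an intermediate filament of astrocytes and is also used by some stem-like glia. A deletion directed by it is aimed at astrocytes, and which cells it reached was not measured here.

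Values were deposited log2 signals, and a difference is the mean of cKO arrays minus the mean of control arrays on that scale. The 6 arrays correlated at 0.992 to 0.997 within a group and at 0.994 to 0.996 between groups, and no pair was identical. The dissection carried the markers of its nucleus. Over the 6 VMH arrays Nr5a1, the defining transcription factor of VMH neurons, lay between 7.53 and 8.26, against 3.80 to 3.87 on the BAT arrays of the same diet. Fezf1, another VMH transcription factor, lay between 14.56 and 15.33, against 3.30 to 3.55 in BAT. Arcuate nucleus markers were present too. Npy lay between 7.21 and 8.57, against 3.68 to 3.99 in BAT, and Pomc between 7.04 and 8.06, against 3.83 to 4.31. These values therefore do not show that the tissue was VMH alone. The pituitary hormone genes Prl and Gh reached at most 4.58 and 5.47 in VMH, under the 5.51 a gene needed on average to be tested.

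The targeted gene did not fall in cKO arrays. Arntl had log2 signals of 8.93, 9.26 and 9.32 on cKO arrays, against 8.58, 8.80 and 8.49 on control arrays. The groups did not overlap, with the cKO arrays higher, and the difference was 0.55 ± 0.17 (SE; limma adjusted p = 0.536). The deleted part is not given, so whether this feature lies inside it is not known, and the feature does not check the deletion. Why Arntl did not fall was not tested. The groups are therefore named by their labels throughout, and every direction rests on those labels.

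On standard diet 44 genes passed limma's test at an adjusted p under 0.05, 41 higher and 3 lower in cKO arrays. These are 0.253% and 0.0185% of the genes tested. At an unadjusted p under 0.05 there were 1088 genes, 744 higher and 344 lower. The rises were mostly modest, with a median of 0.70 on the log2 scale, a smallest value of 0.35, 9 above 1 and 32 below it. For all 44 genes the 3 cKO arrays lay wholly on one side of the 3 control arrays, which was also true of 9.93% of all genes tested. Over all genes the median difference was 0.0189, and 9275 of the 16211 were positive and 6934 negative. Of the 44 genes 41 are protein coding, and they lie on 17 chromosomes. In a bulk sample fewer cells of a type and less RNA per cell cannot be told apart. Spon2 and Palld had control means below the minimum used as a filter, so they were tested only because the mean over all arrays reached it.

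Single arrays moved the count more than the direction. Left without cKO array 1, 2 or 3 the fit kept 32, 22 and 24 of the 44 calls, and without control array 1, 2 or 3 it kept 39, 29 and 32. All 44 differences kept their sign in each of these 6 fits, and 21 genes passed in every one. A fit of the 6 arrays alone, without the high fat diet arrays to help estimate the spread, called 10 genes: Fabp7, Cdkn1a, Mmp14, Id2, Plat, Snx16, Zfand1 and Gm10561 among the rises, and Etnppl and 2900052N01Rik among the falls.

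**Figure D1:**
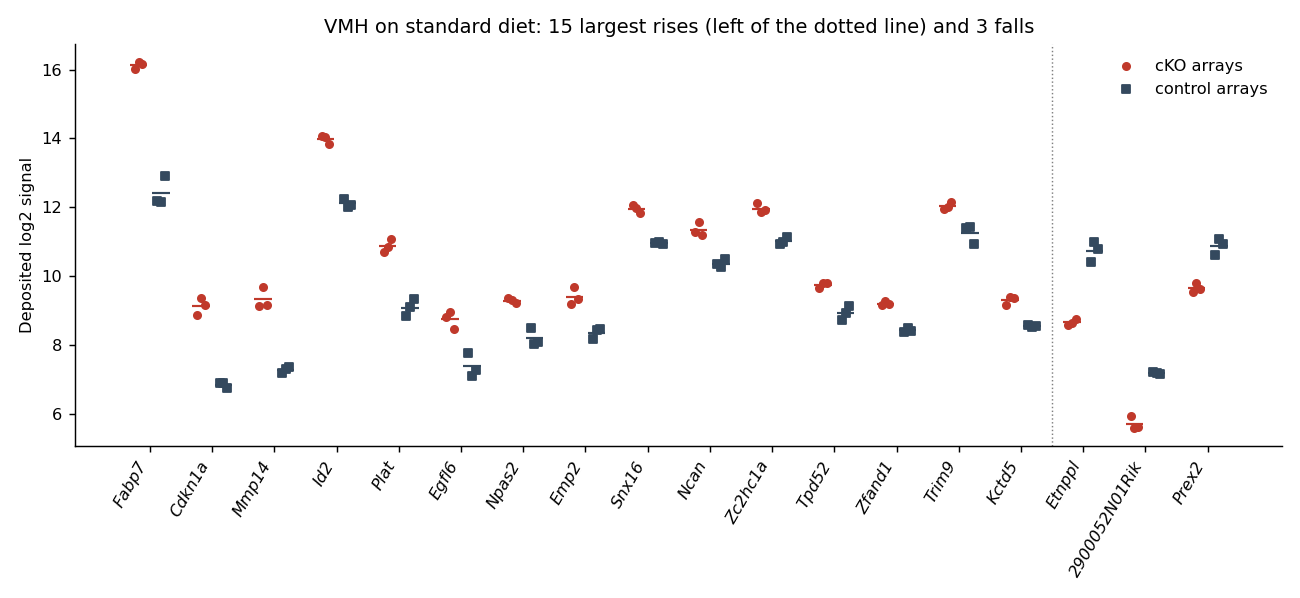
Deposited log2 signal (vertical axis) of the 15 largest rises among named genes, left of the dotted line, and of the 3 falls, right of it. Circles are single cKO arrays and squares single control arrays, with a bar at each group's mean; in every gene the cKO and control symbols do not overlap, and Fabp7 shows the widest gap, at 16.13 against 12.42.

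The largest rise and the largest fall were of glial genes of lipid handling. Fabp7, the brain fatty acid binding protein of astrocytes and radial glia, had log2 signals of 16.01, 16.21 and 16.16 on cKO arrays, against 12.19, 12.16 and 12.92 on control arrays. All 3 cKO arrays stood more than 3 log2 units above every control array, a 13.1-fold rise (difference 3.71 ± 0.33, SE; limma adjusted p = 0.000602). Etnppl, an astrocyte enzyme that breaks down phosphoethanolamine, a precursor of membrane lipid, went the other way, with 8.59, 8.64 and 8.77 on cKO arrays, against 10.42, 10.98 and 10.79 on control arrays. It was 4.18-fold lower, with no overlap (difference -2.07 ± 0.20, SE; limma adjusted p = 0.000882). Fabp5, the epidermal fatty acid binding protein also found in glia, rose by 0.66 ± 0.10 (SE), and lost its call without cKO array 2 or 3 (limma adjusted p = 0.0933 and 0.0929). These were the only calls among 18 measured genes of fatty acid binding and lipid handling, a list whose median was 0.0528. Fabp5 also lies in a run of chromosome 3 neighbours that rose, described below. Acadm, which starts the breakdown of medium-chain fatty acids in mitochondria, stood at 0.29 ± 0.09 (SE) and did not pass.

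Cdkn1a, which encodes the cell cycle inhibitor p21, and Id2, which blocks helix-loop-helix transcription factors, rose in every cKO array. Cdkn1a had log2 signals of 8.87, 9.37 and 9.16 on cKO arrays, against 6.91, 6.92 and 6.75 on control arrays. Id2 had 14.08, 14.04 and 13.83 on cKO arrays, against 12.25, 12.01 and 12.08 on control arrays. Neither gene's groups overlapped, and the differences were 2.28 ± 0.16 and 1.87 ± 0.14 (SE; limma adjusted p = 0.000165 and 0.000178). Few other members of their lists passed. Among 10 measured cyclins and kinase inhibitors Cdkn1a alone passed and the median was 0.0510, with Cdk4 at 0.10 and the replication clamp Pcna at 0.12. Among 18 measured targets of p53, the damage-responsive factor that drives Cdkn1a, it again was the only call, with a median of 0.0417. Among 17 glucocorticoid responsive genes 14 were positive and the median was 0.231, with 1 call, Cdkn1a. Leaving out control array 1 gave a median of 0.130, and leaving out control array 3 gave 0.376. On high fat diet the list's median was 0.0888. Of 19 measured BMP, TGF-beta and Id genes Id2 passed and the median was 0.101. Bmpr1b, a BMP receptor, lay just outside the threshold, at 0.52 ± 0.09 (SE; limma adjusted p = 0.0591), and passed without cKO array 1 (0.63, adjusted p = 0.011). Of 16 radial glia and progenitor genes 3 passed, Fabp7, Id2 and the chromosome 3 neighbour Fabp5, at a list median of 0.0878.

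Mmp14 and Plat, proteases that act at the cell surface, and Ncan, a matrix proteoglycan, rose. Mmp14, a membrane-anchored metalloprotease, had log2 signals of 9.15, 9.69 and 9.15 on cKO arrays, against 7.20, 7.31 and 7.37 on control arrays. Plat, tissue plasminogen activator, had 10.70, 10.86 and 11.09 on cKO arrays, against 8.85, 9.10 and 9.33 on control arrays. The groups of both genes stood more than 1 log2 unit apart, with differences of 2.04 ± 0.13 and 1.79 ± 0.15 (SE; limma adjusted p = 0.000153 and 0.000395). The other 14 measured genes of pericellular proteolysis did not pass, and the list's median was 0.0447. Serpini1, neuroserpin, the brain inhibitor of tissue plasminogen activator, stood at 0.24 ± 0.06 (SE; limma adjusted p = 0.335), and Timp4, a metalloprotease inhibitor, at -0.23 ± 0.13. Ncan, neurocan, a chondroitin sulfate proteoglycan of brain matrix, had 11.27, 11.58 and 11.19 on cKO arrays, against 10.36, 10.26 and 10.49 on control arrays. It rose 1.97-fold without overlap (0.98 ± 0.12, SE; limma adjusted p = 0.0057) and was the only call among 16 measured genes of perineuronal and brain matrix, whose median was -0.0112. Ptprz1, a glial receptor phosphatase that carries the same kind of sugar chain as Ncan, stood at 0.25 ± 0.08 and did not pass.

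Further called genes encode secreted or membrane proteins. Egfl6, a secreted matrix protein with EGF-like repeats, had 8.83, 8.97 and 8.46 on cKO arrays, against 7.77, 7.10 and 7.29 on control arrays. Its groups did not overlap, but the difference of 1.37 ± 0.20 (SE; limma adjusted p = 0.0161) lost its call in 4 of the 6 fits without 1 array. Emp2, a tetraspan membrane protein, had 9.19, 9.70 and 9.33 on cKO arrays, against 8.18, 8.45 and 8.47 on control arrays (1.04 ± 0.15, SE), and passed in 2 of those 6 fits. Spon2, a secreted spondin, rose by 0.61 ± 0.08 (SE) and passed in all 6. Vcam1, an adhesion molecule of activated endothelium and astrocytes, rose by 0.72 ± 0.12 (SE; limma adjusted p = 0.0438) and passed in none of them, with adjusted p from 0.0573 to 0.173. It was the 1 call among 6 measured genes of inflammatory signalling. Vstm4, a single-pass immunoglobulin-domain protein, rose by 0.69 and Tmem44 by 0.53, each passing in 3 of the 6.

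Of the 6 called genes described here for a role at small GTPases, scaffolds or actin, gathered after their values were seen, Prex2 fell and the others rose. Prex2, which activates the GTPase Rac, had log2 signals of 9.56, 9.82 and 9.64 on cKO arrays, against 10.63, 11.09 and 10.93 on control arrays. It fell by 1.21 on the log2 scale without overlap (SE 0.21; limma adjusted p = 0.0438), and passed only without control array 1 among the fits that leave out 1 array (adjusted p 0.119 to 0.196 in the others). Tiam2, another Rac activator, rose by 0.66 ± 0.06 (SE), with 6.35, 6.47 and 6.43 on cKO arrays, against 5.71, 5.83 and 5.75 on control arrays. Rasa2, which switches Ras off, rose by 0.64 ± 0.07, and Arhgef3, an activator of RhoA, by 0.66 ± 0.09 (SE). Frmpd1, a FERM and PDZ domain scaffold, rose by 0.60 and Palld, an actin bundling protein, by 0.38. Tiam2 and Rasa2 passed in all 6 fits, Frmpd1 in 4, Arhgef3 in 3 and Palld in 1.

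The rest of the called genes outside chromosome 3 spread over metabolism, signalling and protein turnover. Pfkfb3, which makes the activator that speeds glycolysis, rose by 0.59 ± 0.08 (SE; limma adjusted p = 0.0068), with 8.38, 8.43 and 8.47 on cKO arrays, against 7.78, 7.93 and 7.80 on control arrays, and lost its call without cKO array 3 (adjusted p = 0.0544). Gucy2f, a guanylate cyclase known from photoreceptors, rose by 0.72 ± 0.09, and Trpm3, a heat-sensing cation channel, by 0.55 ± 0.08 (SE). Kctd5, an adaptor of cullin ubiquitin ligases, rose by 0.76 ± 0.09, the brain ubiquitin ligase Trim9 by 0.77 ± 0.12 and the ligase Rnf144b by 0.57 ± 0.08 (SE). Tmed4, a cargo receptor between endoplasmic reticulum and Golgi, rose by 0.52 and Polr2d, a subunit of RNA polymerase II, by 0.46. Gramd3, Ccdc60 and Ccdc112 rose by 0.43, 0.42 and 0.35. Kctd5 passed in all 6 fits that leave out 1 array, Gucy2f in 5, Trpm3 and Trim9 in 3, Rnf144b in 2, Tmed4, Gramd3, Ccdc60 and Ccdc112 in 1 and Polr2d in none.

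Also among the calls were 3 noncoding genes. The long noncoding RNA 2900052N01Rik had log2 signals of 5.93, 5.61 and 5.62 on cKO arrays, against 7.21, 7.20 and 7.18 on control arrays, with no overlap. It was 2.78-fold lower (-1.48 ± 0.14, SE; limma adjusted p = 0.000885), and its cKO arrays lay close to the filter minimum. Gm10561 rose by 0.94 ± 0.11 (SE). Gm14328, a pseudogene, rose by 0.82 ± 0.12 (SE) and passed in 3 of the 6 fits; a probe for a pseudogene may also read its parent gene, so that value is uncertain.

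Of 18 measured core clock genes 1 passed, Npas2, which can take the place of CLOCK beside BMAL1. It had log2 signals of 9.37, 9.30 and 9.22 on cKO arrays, against 8.49, 8.03 and 8.09 on control arrays, a 2.14-fold rise without overlap (1.097 ± 0.15, SE; limma adjusted p = 0.0138). The call ended in 5 of the 6 fits without 1 array, with adjusted p from 0.0573 to 0.078 and differences of 1.01 to 1.14. Clock stood at 0.06 ± 0.05 (SE), and the repressors Per1, Per2 and Per3 at 0.19 ± 0.20, 0.03 ± 0.12 and -0.21 ± 0.12. Cry1 and Cry2, the cryptochrome repressors, stood at 0.15 ± 0.07 and 0.20 ± 0.08, with cKO arrays above control arrays in both. Nr1d1 and Nr1d2, the REV-ERB repressors of Bmal1, stood at -0.10 ± 0.20 and -0.18 ± 0.13, and Rora, which opposes them, at 0.27 ± 0.18. The remaining members, Arntl2, Rorb, Csnk1d, Csnk1e, Fbxl21, Bhlhe40 and Bhlhe41, lay between -0.14 and 0.06 and did not pass. The median over the core clock list was 0.0397, and 0 of 9 measured clock output genes passed, at a median of 0.0086. The labels give no time of day for the harvest.

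Clock factors act through short DNA words, so the promoters of the called genes were searched on both strands for the E-box CACGTG bound by BMAL1 partners, the variant CACGTT, the D-box TTATGTAA or TTATGCAA, and TAGGTCA, the element of ROR and REV-ERB receptors, together with its core AGGTCA, which every TAGGTCA contains. RefSeq promoters (GRCm38.p6, 250 bases before to 50 after the start) were at hand for 26 of the 44 genes, as 38 promoters. The E-box stood in 1 of them, of Pfkfb3 (2.63%, against 7.15% of 32851 promoters), and CACGTT in 1, of Vstm4 (2.63%, against 4.68%). TAGGTCA stood in 2, of Fabp7 and Gucy2f (5.26%, against 2.61%), and AGGTCA in 5 (13.2%, against 16.3%), those of Fabp7, Gucy2f, Etnppl, Arhgef3 and Trpm3. The D-box stood in 0, against 1.66% of all promoters. A match is only a description of these letters in this window. Printed 5′ to 3′ are the promoters of the largest rise, of a fall with a match, and of the glycolysis gene with the E-box. The match is in capitals. For Fabp7 it is the reverse complement of TAGGTCA, and for Etnppl that of AGGTCA. These promoters lie at chr10:57784673-57784972 (plus strand), chr3:130617325-130617624 (plus strand) and chr2:11502041-11502340 (minus strand).
Fabp7: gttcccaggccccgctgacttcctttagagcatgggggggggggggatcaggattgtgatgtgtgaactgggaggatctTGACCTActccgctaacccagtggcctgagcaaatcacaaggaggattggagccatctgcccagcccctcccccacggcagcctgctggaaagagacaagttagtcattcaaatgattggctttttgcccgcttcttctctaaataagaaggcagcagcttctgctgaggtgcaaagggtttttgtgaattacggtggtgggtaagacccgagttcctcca
Etnppl: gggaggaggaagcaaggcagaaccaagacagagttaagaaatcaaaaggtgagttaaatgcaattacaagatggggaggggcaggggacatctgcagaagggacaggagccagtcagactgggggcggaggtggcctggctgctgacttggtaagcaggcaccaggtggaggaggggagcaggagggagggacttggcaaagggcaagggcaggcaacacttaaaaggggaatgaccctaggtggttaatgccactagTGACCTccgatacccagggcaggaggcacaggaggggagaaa
Pfkfb3: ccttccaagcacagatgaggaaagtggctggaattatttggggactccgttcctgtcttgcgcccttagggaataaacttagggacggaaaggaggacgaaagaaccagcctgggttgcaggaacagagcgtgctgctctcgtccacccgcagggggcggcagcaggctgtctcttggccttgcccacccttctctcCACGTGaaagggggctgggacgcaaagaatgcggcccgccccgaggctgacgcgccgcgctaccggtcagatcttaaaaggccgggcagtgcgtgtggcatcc

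A run of neighbours on chromosome 3 supplied 10 of the 41 rises. Chromosome 3 held 12 of the 44 called genes (27.3%), against 4.85% of the genes tested, and 10 of these 12 lie together between Pex2 and Snx16 in the RefSeq gene order. The run was singled out after its values were seen, so its counts are a description. All 13 tested genes of this run with a gene symbol other than a predicted-gene number were positive, with a median of 0.657. In order, Pkia, an inhibitor of protein kinase A, rose by 0.60, Zc2hc1a by 0.95, and Stmn2, a microtubule regulator of neurons, by 0.70. Tpd52, a vesicle traffic protein, rose by 0.83, the zinc finger repressor Zbtb10 by 0.76 and the membrane adaptor Pag1 by 0.49. They are followed by Fabp5, by Impa1, an inositol monophosphatase (0.60), by Zfand1, a zinc finger protein of stress granule clearance (0.78), and by Snx16, an endosomal sorting nexin (1.005). Snx16 had log2 signals of 12.07, 11.99 and 11.83 on cKO arrays, against 10.96, 10.99 and 10.93 on control arrays, close to a 2.01-fold step.

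The other 3 named members of the run were positive without passing. Pex2, a peroxisome assembly factor, stood at 0.45 ± 0.08 (SE; limma adjusted p = 0.0591), Zfp704 at 0.46 ± 0.08 (adjusted p = 0.0663) and Hey1, a Notch effector, at 0.65 ± 0.24 (adjusted p = 0.663). The 5 predicted genes in the run lay between -0.46 and 0.17, 2 of them positive, and none passed. Genes at both sides did not pass on standard diet. Zfhx4, just before Pex2, stood at 0.04 ± 0.09 (SE). Before it, the long noncoding RNAs 2700069I18Rik and 1110015O18Rik stood at 0.04 and 0.25, and the ribosomal RNA gene n-R5s194 at -0.50 ± 0.22 (SE). On high fat diet 1110015O18Rik stood at 0.68 and passed (limma adjusted p = 0.0373). After Snx16, Ralyl, Lrrcc1, E2f5, Rbis and Ythdf3 stood at -0.05, 0.09, 0.24, 0.23 and 0.11. Between Rbis and Ythdf3, the carbonic anhydrase genes Car13 and Car2 stood at 0.35 ± 0.36 and -0.56 ± 0.33 (SE). The same 13 genes had a median of 0.739 on high fat diet, all positive with 11 calls. In BAT on standard diet their median was 0.527, where 12 were positive and 0 passed. The share of all BAT genes that were positive was not counted. The BAT arrays come from another tissue of the same genotypes; whether they share animals with the VMH arrays is not in the labels. Around Arntl itself, on chromosome 7, 20 neighbours held 0 calls and had a median of 0.0596, and chromosome 7 held 0 called genes, against 7.83% of the genes tested. The source of the chromosome 3 differences was not tested.

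**Figure D2:**
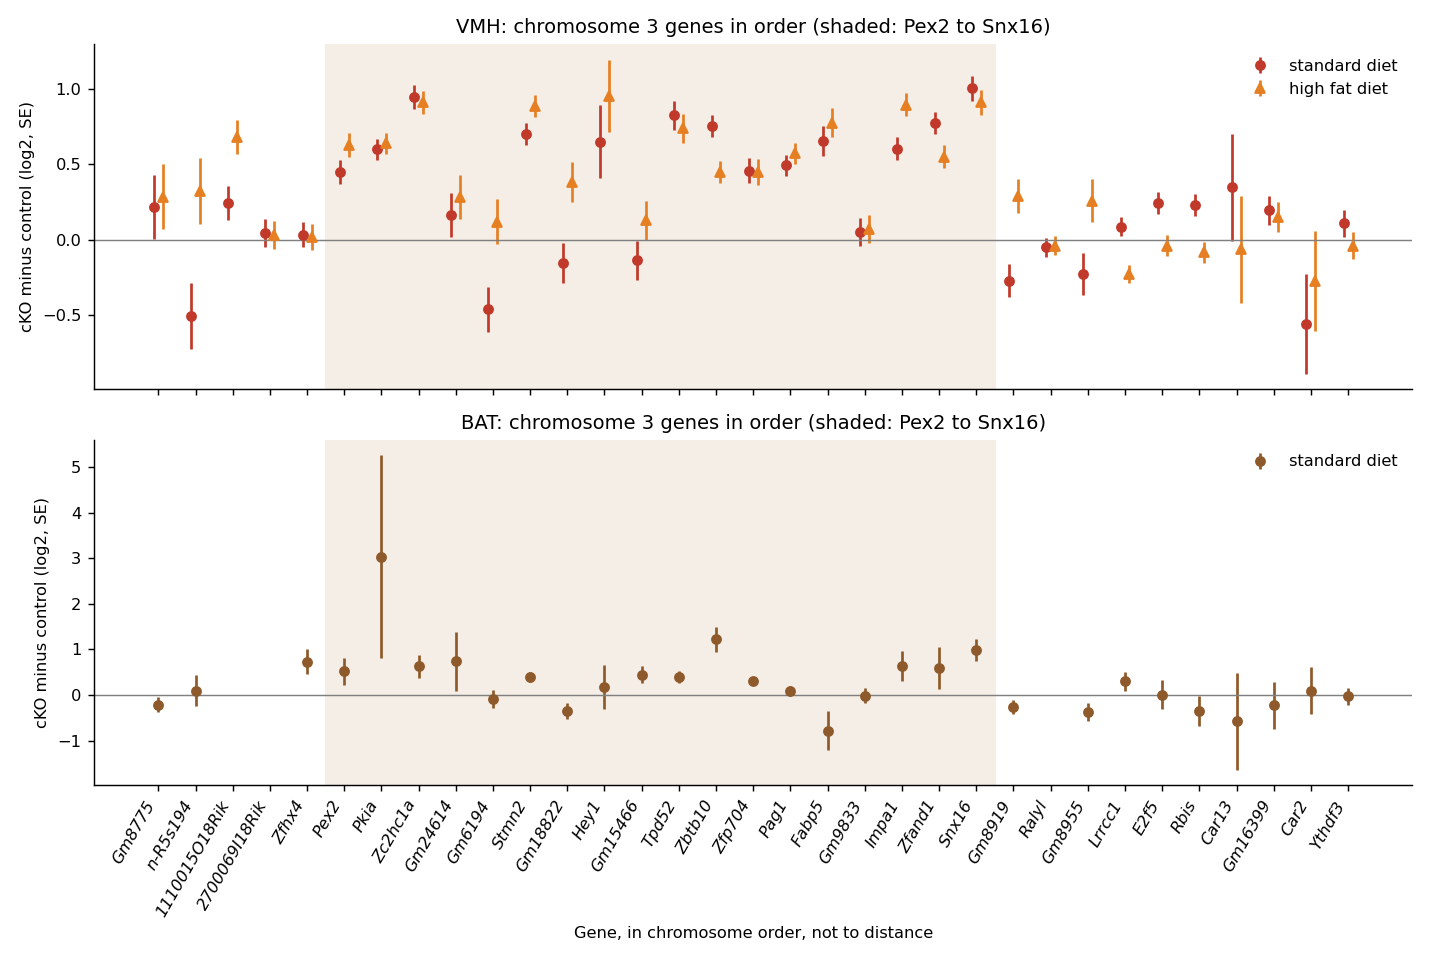
Genotype difference (cKO minus control, log2, with SE bars) of chromosome 3 genes in chromosome order, in VMH on both diets (upper panel) and in BAT on standard diet (lower panel, with its own scale). Of the shaded genes from Pex2 to Snx16, the 13 named ones lie between 0.45 and 1.005 in VMH on standard diet. The 5 predicted ones (Gm numbers) lie there between -0.46 and 0.17. The genes drawn at either side lie between -0.56 (Car2) and 0.35 (Car13) on standard diet, while 1110015O18Rik reaches 0.68 on high fat diet. Pkia in BAT has an SE of 2.22.

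The high fat diet arrays do not enter the standard diet difference itself, and they give the same genotypes a second measurement. They did enter the filter, the choice of feature and the estimate of spread, so calls on both diets are not independent. On high fat diet 49 genes passed in either direction (0.302% of those tested), and of the 44 standard diet genes 34 passed. All 44 had the same sign on both diets, against 56.6% of all genes, and both contrasts use one estimate of spread per gene. The difference was larger on standard diet for 25 genes and larger on high fat diet for 19. Fabp7 rose by 3.98 ± 0.33 on high fat diet, against 3.71 on standard diet, and Npas2 by 1.38 ± 0.15 (SE), against 1.097. Impa1 rose by 0.90, against 0.60, and Rnf144b by 0.80, against 0.57. The 10 genes that did not pass on high fat diet were Rasa2, Frmpd1, Emp2, Vstm4, Trpm3, Trim9, Polr2d, Tmed4, Ccdc112 and Vcam1.

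No gene's genotype difference was shown to depend on diet. The interaction in limma called 0 genes (0%), with a lowest adjusted p of 0.452, while 911 genes (5.62%) had an unadjusted p under 0.05. Of the 44 genes 7 were among them, with a lowest adjusted p of 0.856. Trpm3 had 11.55, 11.57 and 11.59 on cKO arrays, against 10.82, 11.16 and 11.09 on control arrays of standard diet. On high fat diet it had 11.32, 11.19 and 11.18 on cKO arrays, against 11.10, 11.02 and 11.12 on control arrays, a difference of 0.15 ± 0.08 (SE). Its differences were 0.40 apart between diets (limma interaction, unadjusted p = 0.0059). Ccdc112 (0.35 on standard and 0.05 on high fat diet; unadjusted p = 0.0042), Rasa2 (0.64 and 0.35; 0.0112) and Zbtb10 (0.76 and 0.45; 0.0115) were likewise larger on standard diet, as were Cdkn1a (2.28 and 1.68; 0.0221) and Id2 (1.87 and 1.41; 0.0355). Impa1 was larger on high fat diet (0.60 on standard and 0.90 on high fat diet; 0.0206).

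**Figure D3:**
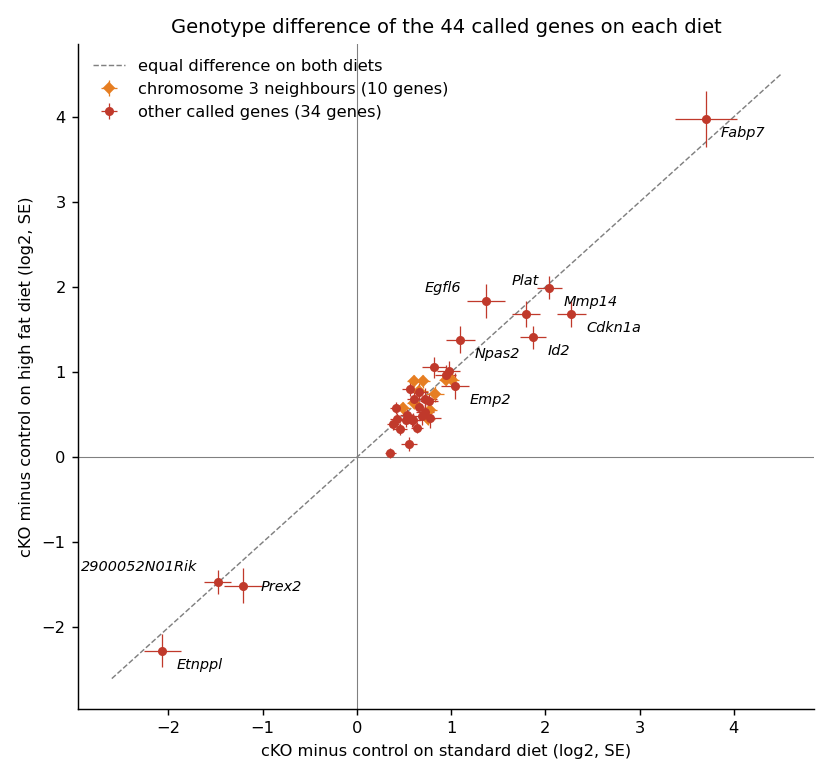
Genotype difference (cKO minus control, log2, with SE bars) of the 44 genes called on standard diet, on standard diet (horizontal axis) and on high fat diet (vertical axis). All 41 rises lie to the upper right of 0 and all 3 falls to the lower left; diamonds mark the 10 called neighbours on chromosome 3, and the dashed line marks equal differences.

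BAT on standard diet gave 0 calls (0% of 17124 genes) by limma, with 610 genes at an unadjusted p under 0.05. Of the 44 VMH genes 33 were tested there, 31 of them rises in VMH, and 22 had the same sign. The share of all genes with the same sign in both tissues was not counted, so the 22 have no background. Fabp7, Etnppl, Npas2 and Egfl6 were among the 11 not tested in BAT. Of the 31 VMH rises tested in BAT, 4 (12.9%) had all 3 cKO arrays below all 3 control arrays there. They were Ncan, Fabp5, Gm14328 and Polr2d, and that order held for 635 of the 17124 genes (3.71%). Snx16, Stmn2, Tpd52, Zbtb10 and Vstm4 had the reverse order in BAT, with all 3 cKO arrays above all 3 control arrays. The share of all BAT genes with this reverse order was not counted, so these genes have no background and do not show agreement between tissues. Cdkn1a stood at 0.66, Mmp14 at 0.48 and Id2 at -0.15 in BAT.

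Cell type markers were read beside these genes. A count of positive members stands against 9275 positive genes of the 16211 tested. Of 27 measured homeostatic astrocyte genes 0 passed, 18 were positive and the median was 0.0261, with list means of 11.35, 11.59 and 11.51 on cKO arrays, against 11.21, 11.50 and 11.57 on control arrays. The groups overlapped. Single members went both ways without passing: the water channel Aqp4 stood at 0.52 ± 0.13, the gap junction gene Gjb6 at 0.53 ± 0.13 and Aldh1l1, a folate enzyme, at -0.35 ± 0.12 (SE). Gfap, the gene that directs the deletion, had log2 signals of 12.77, 13.26 and 12.91 on cKO arrays, against 10.34, 11.54 and 12.46 on control arrays. The control arrays spanned more than 2 log2 units, and the difference of 1.53 ± 0.45 (SE) did not pass (limma adjusted p = 0.48). It passed with the oligodendrocyte score of each array as a covariate, an alternative chosen after seeing the data (2.12, adjusted p = 0.0349). Of 17 reactive astrocyte genes 0 passed, at a median of 0.133, and after Gfap the smallest p belonged to Cd109, a membrane protein, at 0.53 ± 0.16 (SE; limma adjusted p = 0.535).

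Genes of oligodendrocytes, the myelinating cells, differed most between single arrays. The mean of 19 measured members was 9.08, 10.02 and 9.64 on cKO arrays, against 9.44, 10.06 and 10.77 on control arrays. The groups overlapped, with control array 3 highest and cKO array 1 lowest. The median difference was -0.625, with 17 of 19 negative and 0 calls, and on high fat diet the list's median was -0.455. On standard diet leaving out control array 3 gave -0.275, leaving out cKO array 1 gave -0.346 and leaving out control array 1 gave -0.925. Ermn, a myelin cytoskeleton protein, stood at -1.15 ± 0.45, Gjc3, a connexin, at -0.70 ± 0.25, Olig2, a lineage transcription factor, at -0.29 ± 0.11, and Myrf, the factor of myelin gene expression, at -0.45 ± 0.15 (SE). With the oligodendrocyte score as a covariate 82 genes passed, of which 38 were among the 44, and the 44 kept their sign. The 6 that no longer passed were Tmed4, Ccdc60, Ccdc112, Vcam1, Prex2 and Palld, at adjusted p from 0.0541 to 0.0836 in limma.

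Other cell types showed smaller shifts. For choroid plexus, pituitary and meninges 7 of 8 measured genes were positive and 0 passed, with a median of 0.416. It was 0.202 once control array 1 was left out, and on high fat diet the list's median was -0.0999. Kcnj13, a potassium channel of choroid plexus, had 9.68, 9.32 and 9.70 on cKO arrays, against 7.26, 8.49 and 9.52 on control arrays, and Ttr, the most abundant transcript of that tissue, stayed between 4.57 and 5.41 on all 6, below the filter. Tanycyte genes, of the glia that line the ventricle, had a median of 0.223 with 9 of 10 positive and 0 calls, and their defining factor Rax lay between 3.71 and 3.99. Of 24 VMH neuron genes 0 passed, at a median of 0.0792, with Nos1 at 0.53 ± 0.25 and the leptin receptor Lepr at 0.28 ± 0.14 (SE). Of 20 general neuron genes Stmn2 alone passed, at a median of -0.0436. Microglia, endothelium and ependyma had medians of 0.0496, 0.0177 and 0.101 with 0 calls.

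**Figure D4:**
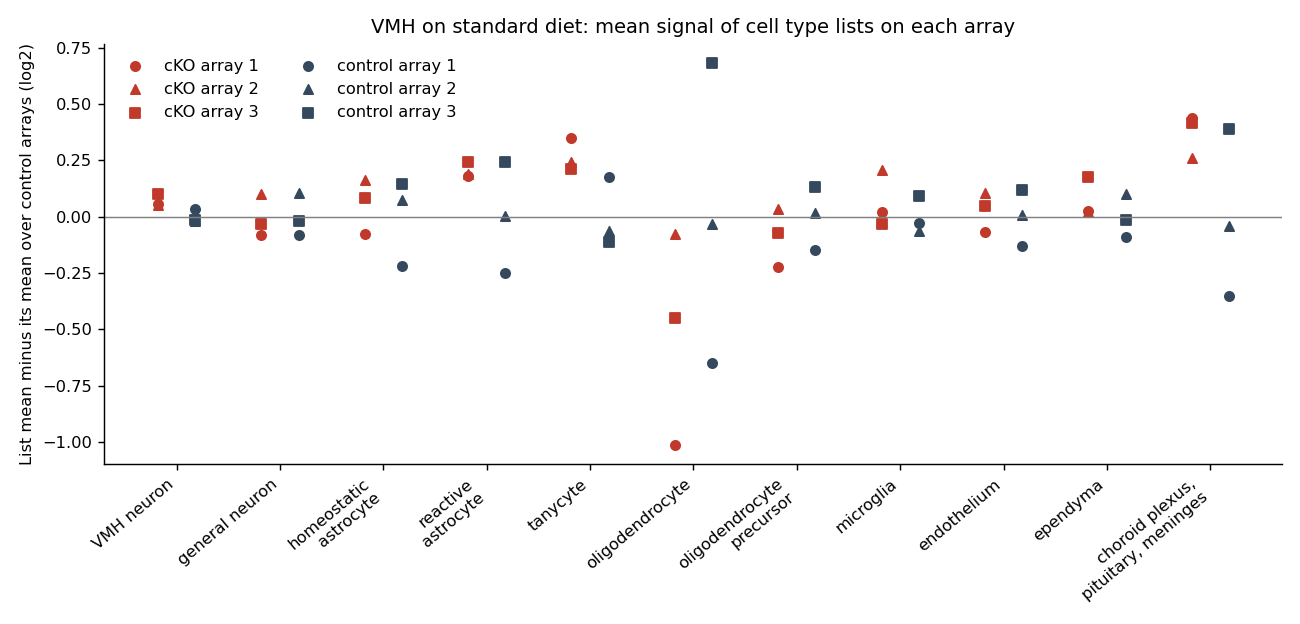
Mean log2 signal of each cell type list on each of the 6 standard diet VMH arrays, less its mean over the 3 control arrays (vertical axis); symbols give the array number, red for cKO and dark blue for control. The oligodendrocyte list spreads most, with control array 3 highest and cKO array 1 lowest, while neuron lists stay near 0.

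The study's title names transcriptional stress responses, and the lists of such responses held few calls. Of 19 measured genes of the unfolded protein and integrated stress response 0 passed, 15 were negative and the median was -0.0554. Of 16 heat shock genes 0 passed, at a median of -0.0654, with Bag3, a chaperone partner, at 0.36 ± 0.11 and Cryab, a small heat shock protein abundant in oligodendrocytes, at -0.56 ± 0.18 (SE). Of 14 oxidative stress genes under NRF2 0 passed, at a median of 0.0926, and of 8 interferon response genes 0, at 0.116. Immediate early genes had 13 of 15 positive and 0 calls, at a median of 0.127, with Fos at 0.40 ± 0.19 (SE). Among lists of other kinds, proteasome and respiratory chain genes had medians of 0.0836 and 0.0604 with 0 calls of 25 and 28. Receptors for leptin, insulin, melanocortins and other signals of energy balance had 0 calls of 17, at a median of 0.0369.

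At the threshold, Vcam1, Prex2 and Palld were the last genes inside, each at a limma adjusted p of 0.0438. Just outside lay Kank1, an actin regulator (0.44 ± 0.08, SE; adjusted p = 0.0519), with Bmpr1b and the predicted gene Gm6166 (0.94) next, both at an adjusted p of 0.0591. Cdh19, a cadherin of glia, shared that value at -1.18 ± 0.21, with 6.52, 6.89 and 6.95 on cKO arrays, against 7.67, 7.997 and 8.24 on control arrays. It passed without control array 1 (-1.33, adjusted p = 0.048).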

How the data were processed

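Gene expression was measured on Affymetrix arrays. The authors deposited a log2 signal for every feature of each array. Per the submitters' processing notes, PLIER 2.0 and Affymetrix Expression Console 1.1.1 took part, without saying how; the genome build and any normalization between arrays were not given in the sources used here. The deposited log2 values were used as they stand; the highest, 19.93, acts as a ceiling. Of 72688 features 6732 were controls, 30604 had 1 gene symbol, 2146 several and 33206 none in the platform annotation, and those without a single symbol were not tested. A mouse gene table (GRCm38.p6) updated 827 symbols and gave gene order. The brightest feature stood for a gene, and was tested when its mean over the 12 VMH arrays reached the median of the table (5.51), or over the BAT arrays 4.13.

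limma 3.58.1 in R 4.3.3 fitted means of the 4 VMH groups over 12 arrays with 8 residual degrees of freedom, a constant prior, no block and equal weights; a second fit covered BAT. Two-sided p-values were adjusted by Benjamini-Hochberg over all genes of a contrast and read at 0.05. An SE comes from this fit. The 36 gene lists are described by counts and medians, without a test. The comparison, the lists and the genes named were chosen with earlier results of these data known; the rule names all called genes, the core clock and, per list, members of smallest p. Genes near a single role were grouped, and cell type markers, chromosome 3 flanks and uncalled members of lists with a call were named, after their values were seen. The procedure was tested on simulated data. The number of arrays limits the precision. Alternatives were array weights, a replicate block, each array left out in turn, only the 6 arrays compared, quantile normalization, a trended and robust prior, a pseudocount of 16, averaging all features of a gene, and no filter; an oligodendrocyte covariate was added after seeing the data.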

Additional observations from a re-analysis of the deposited data

Results flagged for a closer look

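On standard diet 4 genes rose in VMH while in BAT all 3 cKO arrays lay below all 3 control arrays. The difference between tissues was not tested for any of them, and 3.71% of all genes tested in BAT showed that order of arrays. Other VMH rises (Snx16, Stmn2, Tpd52, Zbtb10 and Vstm4) had all 3 cKO arrays above all 3 control arrays in BAT. How many of all BAT genes have that reverse order was not counted, so these rises have no background. Ncan stood at -0.63 in BAT, against 0.98 in VMH. Fabp5 stood at -0.78 in BAT, against 0.66 in VMH, the only negative value in BAT among the 13 named chromosome 3 genes from Pex2 to Snx16. Gm14328 stood at -1.14 in BAT, against 0.82 in VMH, and Polr2d at -0.26, against 0.46. None of these BAT values passed limma's test.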

How the results depend on the processing

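In every alternative all 44 differences kept their sign. Of 660 values of called genes under the alternatives 506 kept their call and 154 lost it; of 645 values of other named genes 634 stayed outside the threshold and 11 passed it. The count of 44 calls was 82 with the oligodendrocyte covariate (78 higher) and 10 with only the 6 standard diet arrays (8 higher), where fewer arrays estimate the spread. Without 1 array it ranged from 22 to 51, with 20 to 38 higher and 2 to 13 lower; 51 and 13 came without control array 1. Array weights gave 9 lower and 53 higher. The interaction gave 0 calls in each of its alternatives. Whether the replicate numbers pair arrays across groups is not in the labels. Same-numbered cKO and control arrays deviated from their group means at correlations of 0.28, -0.02 and 0.08. Arrays of different numbers were not compared in this way, so these values do not decide it. With the replicate block 30 genes passed, 27 higher and 3 lower, of which 29 were among the 44. Quantile normalization gave 43 calls and shared 41. For the other counts the cause of the change was not tested. Genes near the filter minimum have the least signal over background.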
